A study of Mus musculus with 3 samples.

Results

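The genes described here are 7 inflammatory transcripts of Peyer's patch (PP) vessels, namely the chemokine genes Cxcl9, Cxcl10, Cxcl1, Ccl2 and Ccl7, the transcription factor gene Irf1 and the signalling inhibitor gene Socs1. They were taken by symbol from the 31053 gene rows shared by 3 single-cell RNA sequencing libraries. The set was chosen by results of these data, among them the high ratio of Cxcl10 in capillary EC of the mice described next, so the values of that contrast are a description. The libraries hold cells sorted as blood endothelial cells (EC) from the PP of mice of 6 to 10 weeks, isolated 14 to 19 days after tamoxifen. The control library came from the C57BL/6 strain. The other 2 (EC-iCOUPOE replicates 1 and 2) came from CDH5(PAC)CreERT2;COUP-TFIIOE/OE mice, in which tamoxifen switches on Cre recombinase under the promoter of the endothelial cadherin gene Cdh5 and so turns on COUP-TFII, the venous transcription factor encoded by Nr2f2. Cells of males and females were handled jointly, the number of mice behind a library and its day of isolation are not given in the sources used here. The study's controls were tamoxifen-treated mice without the Cre and wild-type mice, and which of these the control library holds was not told apart here. With 1 control library, a difference between genotypes and a difference between libraries cannot be told apart, so no P value is given and each ratio is a comparison of these libraries.

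CXCL9 and CXCL10 bind CXCR3 on activated T cells and natural killer cells, CCL2 and CCL7 bind CCR2 on monocytes, and CXCL1 binds CXCR2 on neutrophils. IRF1 is a transcription factor that interferon-γ and tumour necrosis factor induce and that acts on many interferon targets, Cxcl9 and Cxcl10 among them. SOCS1 is itself induced by cytokines through the JAK-STAT pathway and blocks that pathway by inhibiting JAK kinases. Post-capillary venules (PCV) and high endothelial cells (HEC) are the vessel segments through which lymphocytes leave blood, and capillaries are not a usual site of that traffic.

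The genes lie on 3 chromosomes (GRCm38 coordinates, GENCODE vM21). Cxcl9 (ENSMUSG00000029417, minus strand, chr5:92321347-92328079) and Cxcl10 (ENSMUSG00000034855, minus strand, chr5:92346638-92348889) are neighbours with 18558 bases between them, and Cxcl1 (ENSMUSG00000029380, plus strand, chr5:90891241-90893115) is on the same chromosome. Ccl2 (ENSMUSG00000035385, chr11:82035571-82037453) and Ccl7 (ENSMUSG00000035373, chr11:82045712-82047525) lie on the plus strand with 8258 bases between them. Irf1 (ENSMUSG00000018899, plus strand) is at chr11:53770014-53778374, and Socs1 (ENSMUSG00000038037, minus strand) is at chr16:10782240-10785536.

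The promoters of 4 members are printed because the values below turn on these genes. Each sequence is the 250 bases before the transcription start in RefSeq on GRCm38.p6, 5′ to 3′ on the strand of the gene. Capitals mark matches on either strand to the interferon-stimulated response element (ISRE, searched as GAAA, any 2 bases and GAAA), the gamma-activated site (GAS, TTC, any 3 bases and GAA) or the κB site (GGG, any 3 bases and TTCC).
Cxcl10: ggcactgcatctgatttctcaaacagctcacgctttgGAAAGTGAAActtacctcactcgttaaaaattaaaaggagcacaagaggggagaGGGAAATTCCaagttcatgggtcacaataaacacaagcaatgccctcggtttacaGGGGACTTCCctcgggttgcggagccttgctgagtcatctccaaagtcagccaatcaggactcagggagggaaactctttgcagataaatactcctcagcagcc
Socs1: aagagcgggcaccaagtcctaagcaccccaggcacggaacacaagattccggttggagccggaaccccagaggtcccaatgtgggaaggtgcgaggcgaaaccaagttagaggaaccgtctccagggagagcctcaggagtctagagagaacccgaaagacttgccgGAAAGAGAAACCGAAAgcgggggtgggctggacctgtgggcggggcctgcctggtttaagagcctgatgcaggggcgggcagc
Irf1: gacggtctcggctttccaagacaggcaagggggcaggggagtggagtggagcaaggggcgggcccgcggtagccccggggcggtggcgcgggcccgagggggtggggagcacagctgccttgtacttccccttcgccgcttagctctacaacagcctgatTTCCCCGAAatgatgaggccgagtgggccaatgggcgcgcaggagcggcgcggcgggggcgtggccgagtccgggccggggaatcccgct
Cxcl1: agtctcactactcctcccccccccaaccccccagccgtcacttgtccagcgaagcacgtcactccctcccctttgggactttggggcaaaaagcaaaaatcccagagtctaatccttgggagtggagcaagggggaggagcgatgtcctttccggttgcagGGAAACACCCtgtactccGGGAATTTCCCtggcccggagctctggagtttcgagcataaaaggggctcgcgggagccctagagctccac

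The windows are chr5:92348890-92349139 for Cxcl10, chr16:10785537-10785786 for Socs1, chr11:53769764-53770013 for Irf1 and chr5:90890995-90891244 for Cxcl1. The Cxcl10 window held 1 ISRE match at 213 to 204 bases before the start and κB matches at 159 to 150 and 104 to 95. Socs1 held 2 ISRE matches that overlap each other, at 83 to 74 and 77 to 68, and the Irf1 window held 1 GAS match at 90 to 82, which reads the same on both strands. Cxcl1 held κB matches at 71 to 62, 70 to 61 and 89 to 80, of which the former pair overlap. Among 32851 mouse promoters in windows of 250 bases, 2.98% held the ISRE letters, 7.02% the GAS letters and 4.65% the κB letters, and 36 promoters (0.110%) held ISRE and κB together, Cxcl10 being one. The GGTCA letters that nuclear receptors such as COUP-TFII bind were also searched, on both strands. They occurred in 35.2% of promoters, in the Cxcl10 window at 140 to 136 and in the Cxcl9 window at 84 to 80, and not in the windows printed for Socs1, Irf1 and Cxcl1. A second Irf1 start had no match to any of the 4 motifs. These are matches of letters and are not evidence of binding.

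The control library and EC-iCOUPOE replicates 1 and 2 held 17341398, 17417260 and 3548983 unique molecular identifiers (UMIs, each a counted transcript), and 5341, 4704 and 1239 cells were used. The control library and replicate 2 shared 12 cell barcodes, and no other pair of libraries shared any. Blood EC made up 2473, 3516 and 998 of them. They fell into classes named after the best matching marker list: capillary (CapEC-like), capillary resident progenitor (CRP-like), arterial EC-like, PCV-like and HEC-like, plus dividing cells and a cluster without a name that was led by Colec12, Ltc4s, Hamp and Stra6. All 10 blood EC markers were detected in the CapEC-like, arterial EC-like and PCV-like cells of every library. The sorts differed in other cells, since the control library held 2393 fibroblast-like cells and no lymphatic EC-like cells, whereas EC-iCOUPOE replicates held 7 and 5 fibroblast-like and 922 and 127 lymphatic EC-like cells. Nr2f2 in CapEC-like cells stood at 11.2, 2193 and 1382 CPM (counts-per-million of all UMIs summed over the class) in the control library and EC-iCOUPOE replicates 1 and 2, higher in both EC-iCOUPOE libraries as their labels state. Levels below are in CPM and follow this order of libraries, and intervals cover counting error only. A gene was called higher or lower where both EC-iCOUPOE libraries were at least 2-fold above or below the control library and at least 1 library held 50 UMIs.

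Counted by class, 2 of 4 tested members were called higher in CapEC-like cells (Cxcl10 and Socs1), where 4.77% of all tested genes were higher and 2.84% lower. In PCV-like cells it was 2 of 5 (3.2% of genes higher, 1.7% lower), in CRP-like cells 1 of 2 (6.06% higher), and in arterial EC-like cells 2 of 4 higher (3.59%) and 1 lower (2.48%). Over all blood EC 3 of 6 were higher (4.7%) and 1 lower (2.43%). In dividing cells 1 of 3 was lower (1.62%), and in the unnamed cluster none of 5 was called (6.59% of genes in either direction). The members were chosen with these contrasts known, so nothing is read from these counts. The shares of genes called also moved with the limits. At 1.5-fold, 9.52% of genes were higher in CapEC-like cells, and 17.4% of genes in the unnamed cluster and 11.7% in pericyte and smooth muscle-like cells were called in either direction. At 3-fold, 1.29% were higher in PCV-like cells, 2.04% were higher over all blood EC and 5.1% were called in dividing cells. With a minimum of 10 UMIs 14.8% of genes were called in dividing cells, and with no minimum 10.2% there and 9.46% in CRP-like cells.

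Cxcl10 was the member with the largest ratio. In CapEC-like cells the control library held 20 Cxcl10 UMIs in 701 cells (18.7 CPM, exact 95% Poisson interval 11.4 to 28.9), EC-iCOUPOE replicate 1 held 1826 in 913 cells (784 CPM) and replicate 2 held 1627 in 390 cells (1824 CPM). Both EC-iCOUPOE libraries were far above the control library and also stood apart from each other. The ratios were 41.8-fold and 97.3-fold, or log2 5.39 (interval 4.76 to 6.10) and 6.60 (5.97 to 7.32), with a mean of 6.00 ± 0.86 (SD, n = 2 libraries). Of the 20 control UMIs, 12 came from 1 cell, and without that cell the control level was 7.51 CPM. After each cell was thinned to 1000 UMIs, 1.28% of control CapEC-like cells had a Cxcl10 UMI, against 19.4% (Clopper-Pearson interval 16.9 to 22.1) and 38.7% (33.9 to 43.8) in EC-iCOUPOE (unthinned 1.28%, 25.5% and 45.1%). A leukocyte-like class, which gives the share where the gene is not looked for, had Cxcl10 in 0 of 19 control cells and in 5 of 30 cells of replicate 1 (16.7%, interval 5.64 to 34.7), too few cells to set a background in that library. That interval covers the capillary share of 19.4% in replicate 1. Lymphatic EC-like cells, which were not the background set beforehand, had Cxcl10 in 1.63% and 1.57% of cells in replicates 1 and 2. Their median depths were 2391.5 and 1990 UMIs against 2240 and 2210 in CapEC-like cells. Pericyte and smooth muscle-like cells, also not set beforehand, had Cxcl10 in 19 of 222 thinned cells of replicate 1. The share outside blood EC thus differed by class, and neither class sets a background.

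The CapEC-like class was made of different cells in the 2 genotypes, and the Cxcl10 of EC-iCOUPOE capillaries sat almost entirely in 1 cluster. Cluster 1 held 22, 837 and 352 CapEC-like cells and was led by the haemoglobin genes Hba-a1, Hbb-bs, Hba-a2 and Hbb-bt. Cluster 4, which was led by Scgb3a1, Cxcl12 and Hcar1, held 583, 53 and 27. Haemoglobin RNA was low in EC-iCOUPOE CapEC-like cells, as given below, so in cluster 1 it lay mainly in the 22 control cells. The clustering did not use the 7 members. In cluster 1 Cxcl10 was detected in 1 of 22 control cells, in 230 of 837 and in 174 of 352 cells, at 238, 829 and 1955 CPM. The control value of that cluster is the 1 cell with 12 UMIs. In cluster 4 Cxcl10 was at 8.30, 183 and 425 CPM, but 16 of 17 UMIs in replicate 1 and 15 of 19 in replicate 2 were in 1 cell each, and the thinned shares were 1.20%, 1.89% and 7.41%. Without cluster 1, CapEC-like cells held only 8, 18 and 19 Cxcl10 UMIs, and no member passed the minimum for a call other than Irf1, at log2 -0.43 and 0.64 and not called (3.97% of genes were, in either direction). So the capillary ratio compares mostly control cells of cluster 4 with EC-iCOUPOE cells of cluster 1. With cells of at least 2000 UMIs in the same class, Cxcl10 was at 57.4, 799 and 1904 CPM (86, 559 and 236 cells), a mean log2 ratio of 4.42, and it was 2.71 when such cells were clustered and named again.

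**Figure D1:**
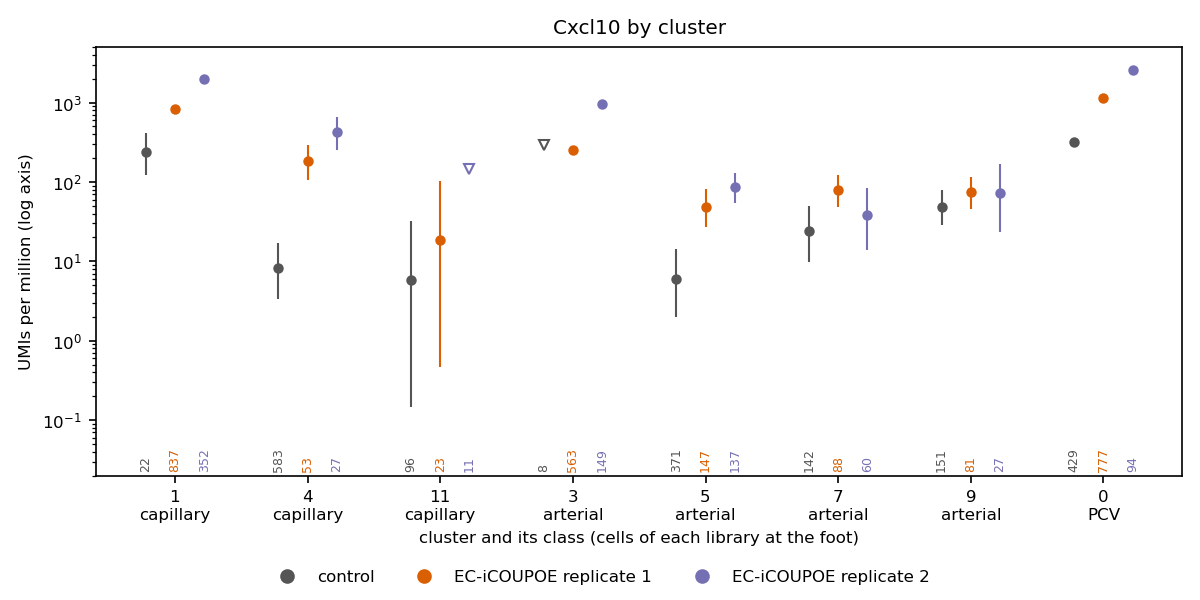
Cxcl10 levels in CPM (log axis) within the clusters of the CapEC-like (capillary), arterial EC-like and PCV-like classes, one point for each library with its exact 95% Poisson interval and the number of cells at the foot. Open triangles mark the upper end of that interval where no UMI was found. Cxcl10 in cluster 1 stood at 238, 829 and 1955 CPM, while that cluster held 22 control cells.

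The other blood EC classes also differed in Cxcl10. PCV-like cells, all from cluster 0, held 438, 3702 and 710 UMIs, or 314, 1139 and 2572 CPM. The class already had Cxcl10 in the control library, in 12.8% of thinned cells, and rose to 28.8% and 55.3% in EC-iCOUPOE, with ratios of log2 1.86 (1.71 to 2.00) and 3.03 (2.86 to 3.21). No single cell decided these values, since at least 12 cells were needed to reach 50% of the UMIs in any of the 3 libraries. Arterial EC-like cells had 19.7, 196 and 455 CPM (log2 3.31 and 4.53), again with a change of cells. Cluster 3 held 8 control cells and 563 and 149 EC-iCOUPOE cells, with 460 of 513 and 358 of 391 of their arterial Cxcl10 UMIs. It was led by Cyp1a1, Enpp6, Stmn2 and Slc6a6 and matched the arterial list least. The mean log2 ratio of arterial markers to the other blood EC was 0.65 there. In clusters 5, 7 and 9 it was 1.32, 1.35 and 2.82. Without cluster 3 the arterial levels were 19.9, 66.2 and 68.3 CPM, still called higher at log2 1.74 and 1.78, as 1.84% of genes were. The arterial clusters left were not alike, and each was under the minimum for a call. Cluster 5 had log2 ratios of 3.01 and 3.82 from 5, 15 and 22 UMIs, and cluster 7 had 1.70 and 0.66. In cluster 9, led by Mgp, Kcne3 and Gkn3, Cxcl10 was at 48.8, 74.7 and 71.6 CPM. Its ratios, log2 0.62 (-0.41 to 1.65) and 0.55 (-1.24 to 2.05), did not differ from the control level beyond counting error. CRP-like cells held no Cxcl10 UMI in 73 control cells and 163 and 572 CPM in EC-iCOUPOE, which is at least 9.81-fold and at least 34.4-fold higher against a floor of 3 UMIs in the control library.

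Classes with Cxcl10 in the control library showed smaller ratios. The unnamed cluster had 354, 574 and 1435 CPM, the dividing cells 371, 496 and 1420 CPM, and both missed the call because replicate 1 was under 2-fold. HEC-like cells had 299 and 461 CPM in the control library and replicate 1, and replicate 2 held 3 HEC-like cells, so this class was not compared. In the control library the order of Cxcl10 levels was dividing cells, the unnamed cluster, PCV-like and HEC-like cells, with overlapping intervals among neighbours, then arterial EC-like, CapEC-like and CRP-like cells. In both EC-iCOUPOE libraries PCV-like cells came first and CapEC-like cells next, with intervals that did not overlap. The capillary class thus moved from near the bottom of this order to its upper end.

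**Figure D2:**
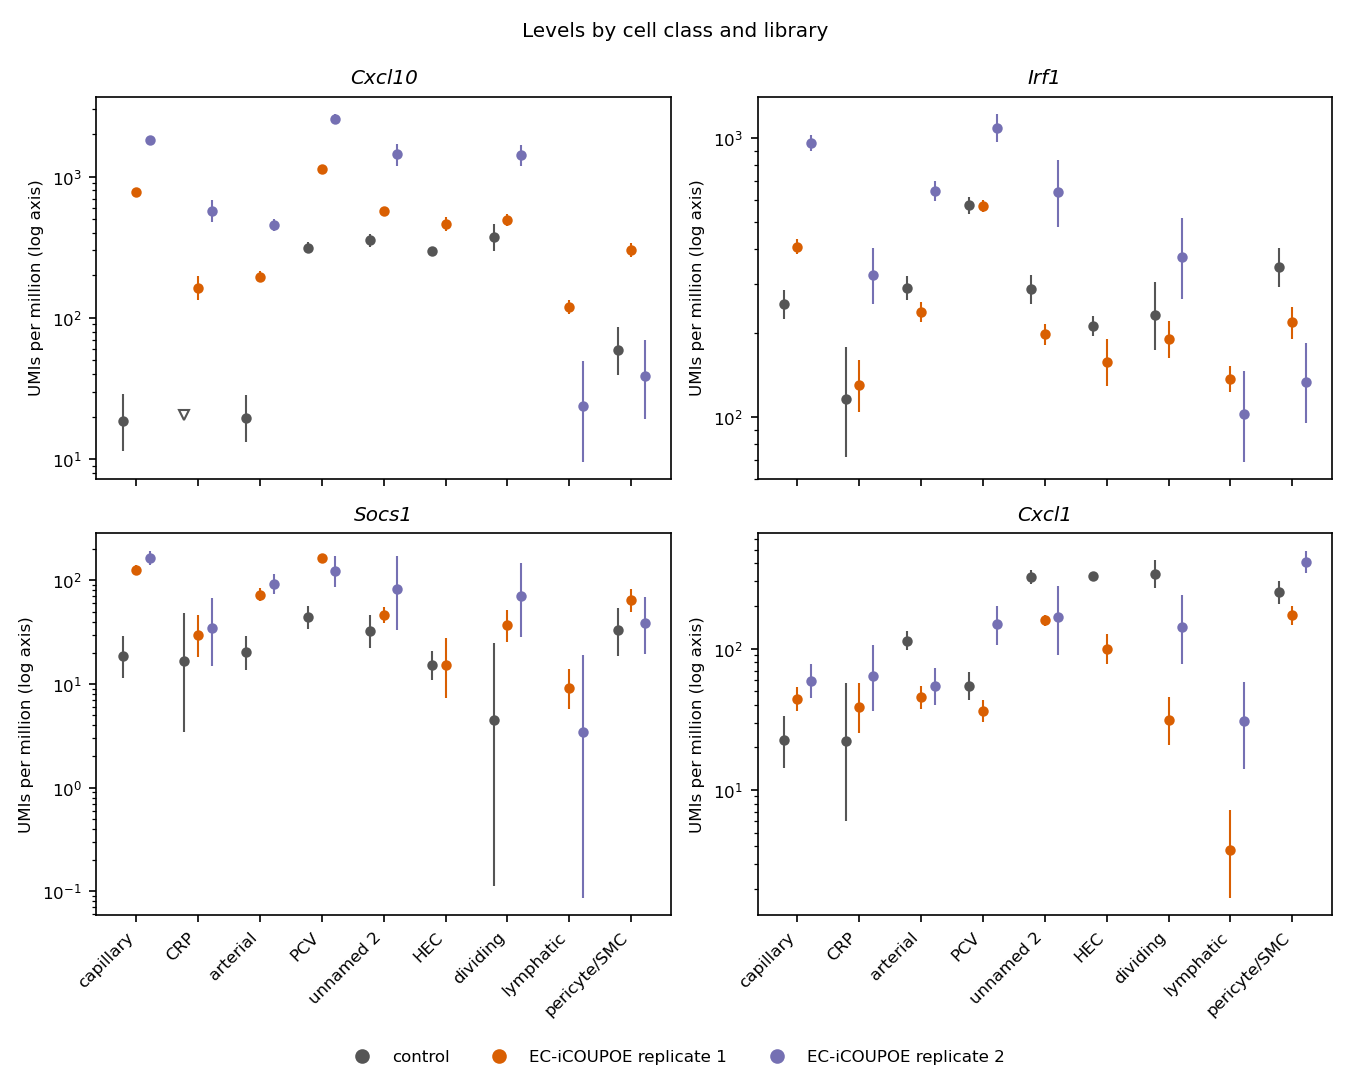
Levels of Cxcl10, Irf1, Socs1 and Cxcl1 in CPM (log axis) by cell class, one point for each library with its exact 95% Poisson interval. Open triangles mark the upper end of that interval where no UMI was found. Unnamed 2 is the unnamed cluster and SMC smooth muscle. Cxcl10 in CapEC-like cells was at 18.7 CPM in the control library and at 784 and 1824 CPM in the EC-iCOUPOE libraries.

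Cxcl9, the neighbour and fellow CXCR3 ligand, was sparse. CapEC-like cells held 1, 24 and 16 Cxcl9 UMIs, under the minimum for a call. PCV-like cells stood at 12.9, 16.6 and 25.4 CPM (log2 0.36 and 0.97, with counting intervals of -0.43 to 1.22 and -0.53 to 2.30) and HEC-like cells at 47.3 and 51.6 CPM in the control library and replicate 1. Over all blood EC the levels were 23.4, 16.8 and 17.1 CPM, but the mix of classes differed, since HEC-like cells made up 14.8%, 2.36% and 0.301% of blood EC. Without HEC-like cells the order turned, to 10.96, 15.03 and 17.19 CPM from 58, 189 and 42 Cxcl9 UMIs. Cxcl10 over all blood EC was at 215, 643 and 1275 CPM with HEC-like cells and at 171, 653 and 1278 CPM without. Where Cxcl9 was found, Cxcl10 was common. In replicate 1, 24 of 31 blood EC with a Cxcl9 UMI also had Cxcl10 (77.4%, against 17.3% of those without Cxcl9), in replicate 2 it was 9 of 10, and in the control library 8 of 21.

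Socs1 was higher in EC-iCOUPOE in CapEC-like, arterial EC-like and PCV-like cells. CapEC-like cells held 20, 292 and 147 Socs1 UMIs, or 18.7, 125 and 165 CPM, with ratios of 6.69-fold and 8.79-fold (log2 2.74, interval 2.09 to 3.47, and 3.14, interval 2.46 to 3.89). The 2 libraries were close to each other, at a mean log2 of 2.94 ± 0.28 (SD, n = 2). The thinned shares were 2.14%, 9.75% and 12.3%. Arterial EC-like cells had 20.4, 72.9 and 93.1 CPM (log2 1.84 and 2.19), and PCV-like cells 44.5, 163 and 123 CPM (1.87 and 1.47). As with Cxcl10, the clusters differed in their libraries. Cluster 1 held 1, 286 and 143 of the Socs1 UMIs, and without it CapEC-like cells had 18.7, 40.9 and 57.4 CPM from 19, 6 and 4 UMIs. HEC-like cells had 15.3 and 15.2 CPM in the control library and replicate 1, and CRP-like cells 16.6, 29.9 and 34.4 CPM, under the minimum. The unnamed cluster, at 32.6, 46.1 and 83.0 CPM, was not called.

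Irf1 differed mainly between the EC-iCOUPOE libraries. CapEC-like cells had 254, 408 and 962 CPM, with log2 ratios of 0.69 (0.49 to 0.89) and 1.92 (1.72 to 2.12), so replicate 1 was under 2-fold and the gene was not called. In PCV-like cells Irf1 stood at 574, 572 and 1090 CPM and in arterial EC-like cells at 290, 238 and 647 CPM. In both classes replicate 1 was at or under the control level and replicate 2 above it. The same held in the unnamed cluster, at 288, 198 and 640 CPM. The spread between the EC-iCOUPOE libraries (mean log2 0.46 ± 0.66 in PCV-like, 0.43 ± 1.02 in arterial EC-like cells, SD, n = 2) was thus larger than the mean difference from the control library in these classes. In all 3 libraries PCV-like cells had the highest Irf1 level among blood EC classes, and in replicate 2 the interval overlapped that of CapEC-like cells.

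Cxcl1, the neutrophil chemokine, was lower in EC-iCOUPOE over all blood EC, in arterial EC-like and in dividing cells, and not in every class. Over all blood EC it stood at 193, 68.4 and 75.9 CPM (log2 -1.50 and -1.35) and in arterial EC-like cells at 114, 45.4 and 54.7 CPM (-1.33 and -1.06), both called lower. The call over all blood EC rested on HEC-like cells, and without them Cxcl1 was at 123, 66.8 and 75.3 CPM (log2 -0.88 and -0.71) and not called, where 2.07% of genes were lower and 3.62% higher. Dividing cells had 340, 31.5 and 142 CPM, also lower, from 23 control cells. The dividing cells of the libraries were not alike, with Madcam1 at 8558, 2584 and 2668 CPM and median depths of 9847, 4521.5 and 4248 UMIs. The part of this in their Cxcl1 ratio was not tested. The unnamed cluster, at 319, 158 and 166 CPM, missed the call by a small margin (log2 -1.01 and -0.94). HEC-like cells had 327 and 100 CPM in the control library and replicate 1. PCV-like cells split, at 54.6, 36.3 and 149 CPM. In replicate 2, 15 of the 41 UMIs were in 1 PCV-like cell, and without it the level was 95.9 CPM. CapEC-like cells had a low control level, 22.5 CPM, and 44.2 and 59.4 CPM in EC-iCOUPOE (log2 0.98 and 1.40), which was not called. With cells of at least 2000 UMIs in the same class the mean log2 ratio was 0.66, from 7 control UMIs. When such cells were clustered and named again, the CapEC-like class took in 52 control Cxcl1 UMIs and the gene was called lower at -1.81. In arterial EC-like cells without cluster 3 the ratios were -0.37 and -1.36, and with arterial cells of at least 2000 UMIs -1.38 and -0.84, neither a call. The arterial clusters also split. In cluster 5, which held 371 control cells, Cxcl1 stood at 42.5, 78.2 and 46.7 CPM (log2 0.88 and 0.14, from 35, 24 and 12 UMIs). Cluster 7 had 299, 87.6 and 38.4 CPM and cluster 9 had 120, 94.4 and 43.0 CPM. The part of the cluster mix in the arterial ratio was not tested. Fibroblast RNA moved with this gene. The 8 fibroblast markers summed to 103 CPM in control blood EC, with all 8 detected, and to 1.13 and 8.56 CPM in EC-iCOUPOE, with 4 and 7 detected. Fibroblast-like cells of the control library had 830 CPM of Cxcl1 and 35576 CPM of those markers. The part of fibroblast RNA in the Cxcl1 difference was not tested.

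Ccl2 and Ccl7, the CCR2 ligands, were almost absent from blood EC. All blood EC together held 9, 63 and 10 Ccl2 UMIs (1.12, 4.76 and 4.08 CPM) and 4, 1 and 3 Ccl7 UMIs. Ccl2 met the rule for a call at log2 2.09 (1.07 to 3.28) and 1.86 (0.41 to 3.34), and the wide intervals show how few molecules carry it. PCV-like cells held no Ccl2 UMI in any library, which at a floor of 3 UMIs allows up to 2.15, 0.923 and 10.9 CPM, and CapEC-like cells held 3, 0 and 2.

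**Figure D3:**
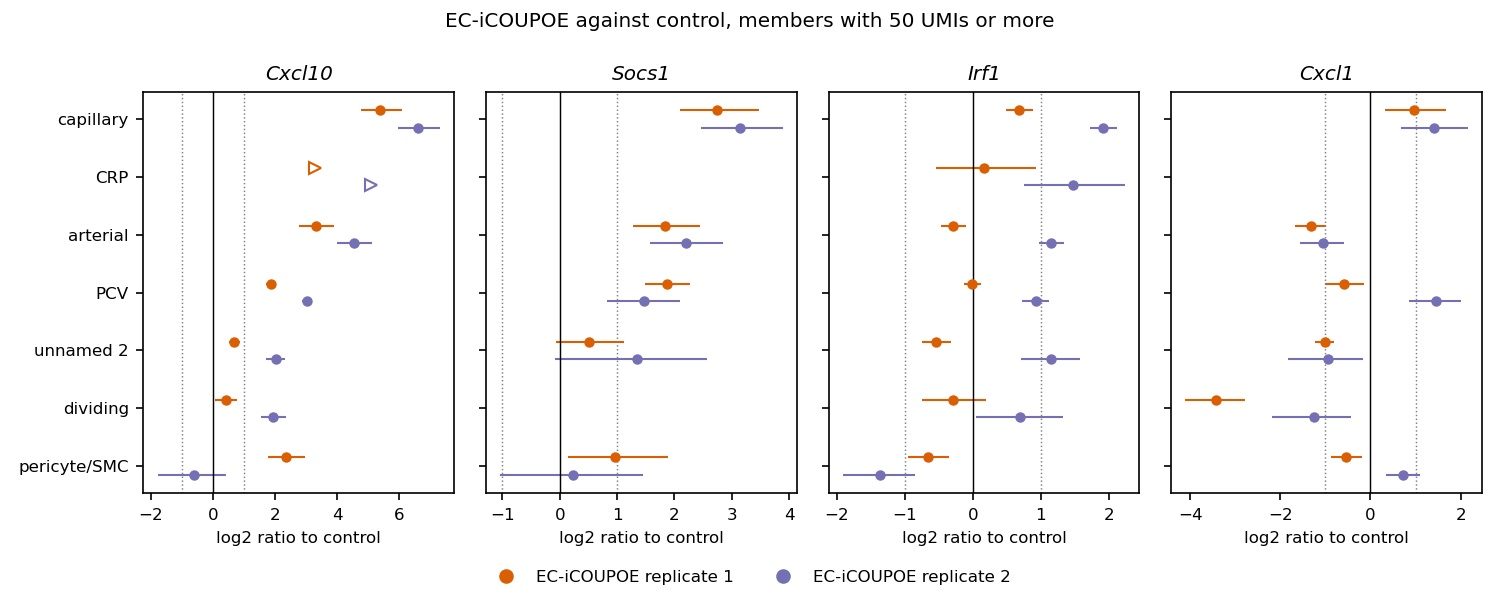
Log2 ratio of each EC-iCOUPOE library to the control library for Cxcl10, Socs1, Irf1 and Cxcl1 by cell class, with exact conditional 95% counting intervals, dotted lines at the 2-fold limits and triangles for lower bounds where the control library held no UMI. Cxcl10 and Socs1 lay above the upper limit in both libraries in CapEC-like, arterial EC-like and PCV-like cells, and Irf1 did so in none of these classes.

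Cxcl10 and Irf1 were found in the same cells above the product of their shares. In CapEC-like cells of replicate 1, 83 thinned cells had both, against 49.1 from the product of the 2 shares within each cluster, and Irf1 was found in 46.9% of cells with Cxcl10 and 21.7% of cells without. In replicate 2 it was 105 cells against 75.2, or 69.5% and 35.6%. PCV-like cells gave 33 cells in the control library, at 1.65 times the product, 131 against 79.9 in replicate 1 and 36 against 32.6 in replicate 2. The median depth of CapEC-like cells with and without Cxcl10 was 2268 and 2226 UMIs in replicate 1 and 2383 and 2131 in replicate 2. Thinned CapEC-like cells with Irf1 had more UMIs of the dissociation and immediate early genes followed below. Means were 32.2 against 20.8 in cells without Irf1 in replicate 1, and 35.5 against 29.0 in replicate 2. For Socs1 they were 34.0 against 22.8 and 38.1 against 31.3. The part of this in the co-detection was not tested.

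Cxcl10 and Socs1 were found together in 36 CapEC-like cells of replicate 1, against 18.0 from the product, and in 24 of replicate 2, against 19.97. Over all blood EC the numbers were 11 against 5.06, 99 against 54.0 and 46 against 34.2. Irf1 and Socs1 shared 22, 110 and 50 blood EC, against 14.8, 71.0 and 45.7. Cxcl10 and Cxcl1 shared 54 blood EC against 28.7, 51 against 20.4 and 15 against 12.4. In CapEC-like cells 3 or more members were detected in 0, 28 and 23 cells, and in PCV-like cells in 6, 44 and 9. These are sparse counts and are given as a description.

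**Figure D4:**
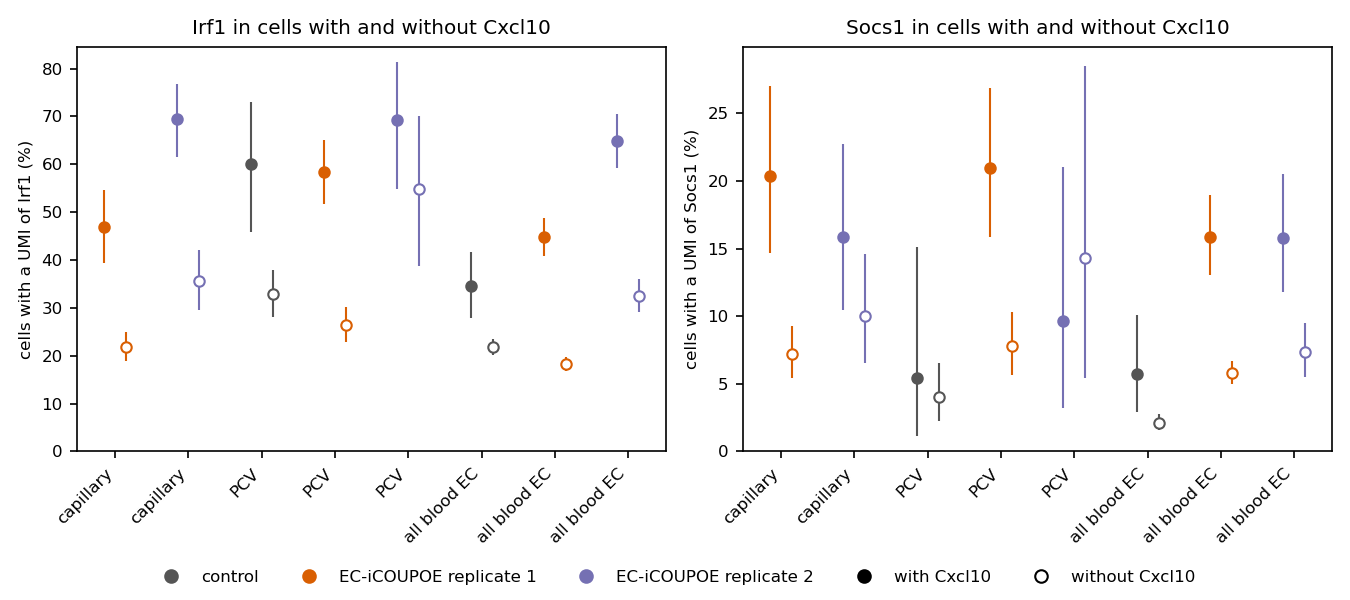
Share of cells with an Irf1 UMI (left) and a Socs1 UMI (right) among thinned cells with Cxcl10 (filled) and without (open), by class and library, with Clopper-Pearson 95% intervals. In CapEC-like cells Irf1 was found in 46.9% and 69.5% of cells with Cxcl10 and in 21.7% and 35.6% of cells without, and control CapEC-like cells had too few with Cxcl10 to show.

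Cxcl10 was also set against the Nr2f2 of the same cell. In CapEC-like cells of replicate 1, Cxcl10 was found in 11.6% (7.03 to 17.7) of 155 cells with no Nr2f2 UMI and in 21.0% (18.1 to 24.1) of 758 cells with at least 1. In replicate 2 the shares were 35.2% (26.9 to 44.2) of 125 and 40.4% (34.4 to 46.6) of 265 cells, with overlapping intervals. Socs1 stood at 3.87% and 10.9% in replicate 1, and in 9 of 125 and 39 of 265 cells of replicate 2. Irf1 stood at 18.7% and 28.2% in replicate 1, and in 50 of 125 and 140 of 265 cells of replicate 2. A cell with no Nr2f2 UMI may still carry the transcript at this depth. These shares are over the whole class, so a different mix of clusters among cells with and without Nr2f2 is not taken out. The control CapEC-like cells had Cxcl10 in 1.28%, Irf1 in 18.8% and Socs1 in 2.14%. Among EC-iCOUPOE cells without an Nr2f2 UMI, Cxcl10 was above that share in both libraries and Irf1 in replicate 2, while Irf1 in replicate 1 was level with it and the Socs1 intervals overlapped in both.

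**Figure D5:**
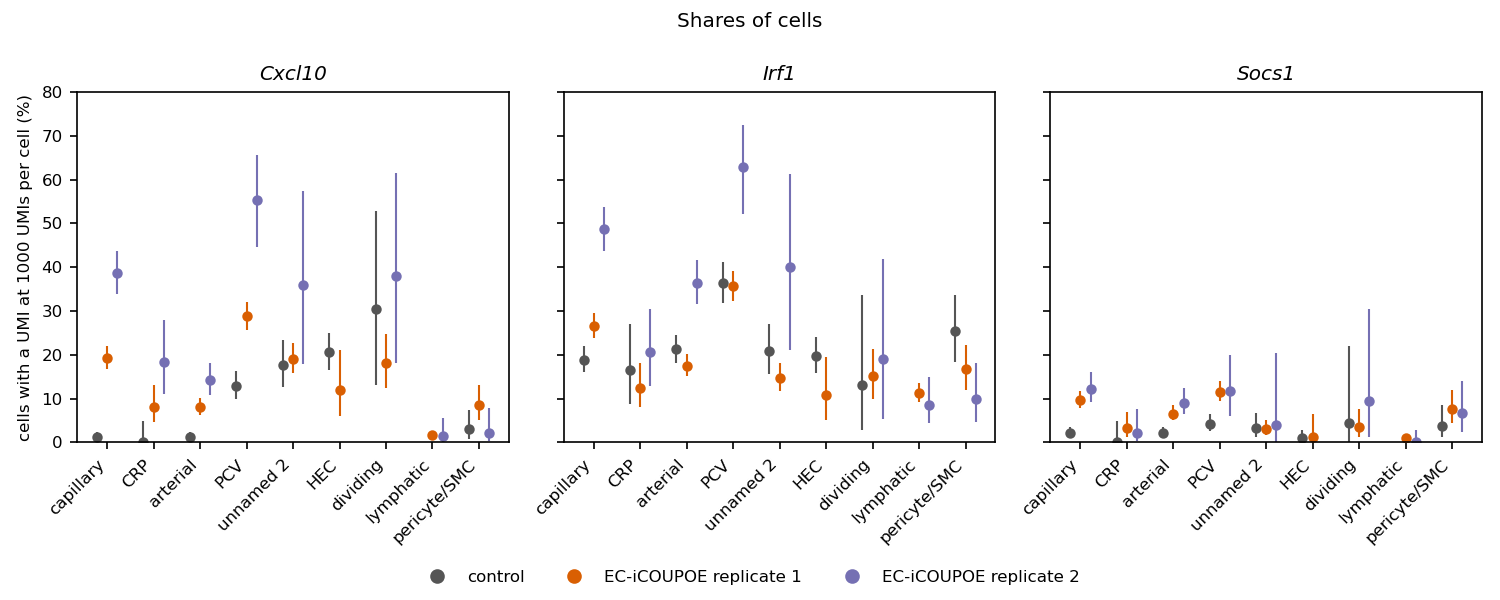
Share of cells with a UMI of Cxcl10, Irf1 and Socs1 after thinning each cell to 1000 UMIs, by cell class and library, with Clopper-Pearson 95% intervals. In CapEC-like cells Cxcl10 went from 1.28% to 19.4% and 38.7%, and Irf1 from 18.8% to 26.6% and 48.7%.

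Other genes of these pathways were followed in CapEC-like cells from fixed lists. As for the members, these ratios compare mostly control cells of cluster 4 with EC-iCOUPOE cells of cluster 1. List values without cluster 1 are not given. Beside the list counts that follow, 4.77% of all tested genes were higher and 2.84% lower in CapEC-like cells. Of 19 tested type I interferon targets, 10 were higher and none lower, with median log2 ratios of 1.10 and 1.22 against 0.06 and -0.11 over all tested genes. Ifit3, which encodes an antiviral protein of the IFIT family, went from 27.2 to 251 and 161 CPM, and Ifit1 of the same family from 60.0 to 189 and 339 CPM. Of 22 interferon-γ targets only 2 were higher and 2 lower, with medians of 0.34 and 0.32. The leukocyte adhesion molecule gene Icam1 (41.2, 359 and 684 CPM) and the complement C1 inhibitor gene Serping1 (21.6, 145 and 233 CPM) were higher, whereas the GTPase gene Gbp4 (305, 131 and 89.7 CPM) and the MHC class I gene H2-D1 (5957, 2874 and 2663 CPM) were lower. Some of these shifts were not particular to capillary cells. Ifit3 was called higher and Gbp4 lower in every compared class, pericyte and smooth muscle-like cells among them. H2-D1 was also called lower in CRP-like and PCV-like cells and in the unnamed cluster. Among 13 NF-κB targets 3 were higher and none lower, namely Icam1, the P-selectin gene Selp (8.43, 52.0 and 103 CPM) and Ch25h, at medians of 0.55 and 0.94.

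Of 12 tested JAK-STAT genes 3 were higher, namely the feedback inhibitor gene Socs3 (407, 1292 and 1758 CPM), the interferon-γ receptor gene Ifngr2 (18.7, 41.7 and 43.7 CPM) and the kinase gene Jak2 (10.3, 31.8 and 21.3 CPM). The other 9, among them Ifngr1, Ifnar1, Ifnar2, Jak1, Stat2, Stat3, Irf9 and Ptpn2, were not called. Tyk2 and Cish were under the minimum. In PCV-like cells 3 of 18 and in arterial EC-like cells 2 of 16 type I interferon targets were higher, beside 3.2% and 3.59% of all tested genes. Their median log2 ratios were 0.74 and 0.62 in PCV-like and 0.16 and 0.09 in arterial EC-like cells. No JAK-STAT gene was called in either class. With 1.7% and 2.48% of all tested genes lower there, nothing is read from that absence. In dividing cells 8 of 12 type I interferon targets were higher, beside 9.74% of all tested genes. Both medians there, with 23 control cells, were above those of CapEC-like cells. In CRP-like cells it was 4 of 11 and over all blood EC 8 of 22. The unnamed cluster had 3 of 17 and pericyte and smooth muscle-like cells 1 of 9. Higher type I interferon targets were thus not particular to capillary cells.

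The cytokines that act upstream were hardly seen in these EC sorts, which held 19, 30 and 2 leukocyte-like cells. Of the type I interferon genes only Ifnb1 was searched. The counts therefore do not bear on the presence of these cytokines in the tissue. Over all cells the libraries held 2, 0 and 0 UMIs of Ifng, none of Ifnb1, 14, 14 and 1 of Tnf, 72, 1 and 0 of Il1b and 1, 0 and 0 of Lta, whereas Ltb had 265, 1041 and 52. Of the receptors for these chemokines, Cxcr3 had no UMI in blood EC of any library, Ccr2 had 0, 0 and 1 and Cxcr2 had 5, 0 and 5. The scavenging receptor gene Ackr1, a marker of venules, stood at 30.9, 38.7 and 59.4 CPM in CapEC-like cells and Ackr3 at 203, 163 and 211 CPM, neither called. The other receptors, Ccr1 and Ackr2 among them, were under the minimum there. Among the other chemokines, the CXCR6 ligand Cxcl16 was higher in CapEC-like cells (8.43, 48.1 and 58.3 CPM), the CXCR4 ligand Cxcl12 was lower (1756, 166 and 233 CPM) and Ccl21a was not called (94.6, 36.5 and 184 CPM). Cxcl12 was a leading gene of cluster 4, which held 583, 53 and 27 cells. Its ratio thus cannot be told apart from the change of clusters.

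Genes that respond to tissue dissociation moved with the capillary result. Of 20 such genes and immediate early genes, 6 were higher and 1 lower in CapEC-like cells, at medians of 0.38 and 0.93. Of all tested genes there, 4.77% were higher and 2.84% lower. Atf3 went from 240 to 828 and 1276 CPM and Ier3 from 418 to 1283 and 1763. Within the EC-iCOUPOE libraries, thinned CapEC-like cells with Cxcl10 had a mean of 36.0 UMIs of this list against 20.9 in cells without in replicate 1, and 34.8 against 30.5 in replicate 2. In PCV-like and arterial EC-like cells none of the 20 was called in either direction, beside 4.9% and 6.07% of all tested genes. The medians were -0.14 and 0.10 in the former and -0.60 and 0.14 in the latter. PCV-like cells with Cxcl10 had a mean of 37.4 UMIs of this list against 25.2 without in replicate 1, and 34.6 against 41.4 in replicate 2. For arterial EC-like cells it was 37.6 against 22.5 and 39.1 against 36.5. The capillary libraries also differed in depth, at median 1370, 2240 and 2210 UMIs per cell, and in haemoglobin RNA, at 6299 CPM summed over 5 erythroid genes in the control library against 1.72 and 37.0. Fibroblast markers in CapEC-like cells summed to 141 CPM in the control library, with 8 of 8 detected, and to 0.859 and 5.60 CPM in EC-iCOUPOE, with 1 and 4 detected and Pdgfra and Col1a1 at 0. The part of these differences in the capillary result was not tested.

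The Cdh5 promoter is endothelial, and pericyte and smooth muscle-like cells (134, 222 and 90) lie outside its intended range. Cxcl10 there stood at 59.6, 304 and 38.7 CPM, so replicate 1 was above and replicate 2 below the control library, and 79 of the 310 UMIs of replicate 1 were in 1 cell. Irf1 was under the control level in both, at 344, 218 and 134 CPM (log2 -0.66 and -1.36). Cxcl1 was at 250, 172 and 412 CPM, with 37 of 117 UMIs of replicate 2 in 1 cell, Socs1 at 33.1, 64.6 and 38.7 CPM and Ccl2 at 13.2, 69.5 and 17.6 CPM. None of 5 tested members was called, where 4.3% of genes were. Blood EC RNA moved with these values. The 10 blood EC markers, all detected in each library, summed to 4690, 5396 and 810 CPM in this class, beside 11412, 15428 and 21776 CPM of its own markers, and Nr2f2 stood at 258, 1230 and 641 CPM. The part of EC RNA in the pericyte values was not tested.

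Lymphatic EC-like cells were found only in the EC-iCOUPOE libraries, 922 and 127 cells, so they have no control. They had little of Cxcl10 (119 and 23.9 CPM), Socs1 (9.23 and 3.42), Irf1 (137 and 102) and Cxcl1 (3.77 and 30.7). Of the Cxcl10 UMIs in replicate 1, 160 of 284 were in 1 cell, and without it the level was 52.2 CPM. Ccl2 (237 and 1332 CPM) and Ccl7 (54.9 and 577 CPM) had their highest levels in this class and in fibroblast-like cells, and single cells carried them. In replicate 2, 1 cell held 375 of 390 Ccl2 UMIs and 163 of 169 Ccl7 UMIs, and in replicate 1, 1 cell held 226 of 566 and 57 of 131, along with the 160 Cxcl10 UMIs. Without these cells Ccl2 was at 143 and 52.9 CPM and Ccl7 at 31.1 and 21.2 CPM. The cells had 7377 (replicate 1) and 9407 UMIs in total, with 12 and 11 UMIs of lymphatic markers, 5 and 13 of blood EC markers and 9 and 2 of fibroblast markers. Fibroblast-like cells of the control library had Ccl2 at 158 and Ccl7 at 137 CPM, and 37 of them had both, against 9.79 from the product of the shares.

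Genes with the most similar pattern were sought over the 25 class-by-library units of at least 30 cells, among 7467 genes, by Pearson's r of log2(CPM + 10). These units share libraries and cells of 1 lineage, so r is a description. The closest to Cxcl10 were Icam1 (0.80), the kinase gene Map3k8 (0.76) and the nuclear body gene Sp140 (0.76), and the closest to Socs1 were Map3k8 (0.87), Amigo2 (0.85) and Myof (0.81). Irf1 was closest to the immediate early gene Ier5 (0.85), Arl4d (0.83) and Rbm18 (0.82). Cxcl1 was closest to Antxr1 (0.79), Snhg18 (0.78) and Pcolce (0.77), Ccl7 to Pdpn (0.94), Dapk1 (0.91) and Foxp2 (0.91) and Ccl2 to Cp (0.92), Tnxb (0.89) and Pdpn (0.89). Cxcl9 was closest to Timp1 (0.77), Bst1 (0.77) and Dsg2 (0.72). Ccl2 and Ccl7 shared Pdpn, which encodes podoplanin of lymphatic and fibroblastic cells, and Cxcl10 and Socs1 shared Map3k8.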

How the data were processed

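Single-cell 3′ RNA libraries were made from sorted PP EC on the 10x Chromium platform. The deposited values are UMI counts per gene and cell barcode, made by the authors with Cell Ranger (3.0.2 per the labels, while the header of replicate 1 names 3.1.0) on mm10, with the barcodes called as cells (6080, 4959 and 1441). Transgene rows added in 2 libraries had no UMI and stayed out.

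The filter asked for 500 genes and 1000 UMIs per cell and a mitochondrial share of 10% or less (5473, 4750 and 1243 cells left). Scrublet (scanpy 1.11.5, expected rate 6%) called 132, 46 and 4 doublets, which were left out. In replicate 2 it marked 0.322% of cells. Seurat 5.3.0 (R 4.3.3) joined the libraries and found clusters (2000 variable genes, 30 components, 20 neighbours, Louvain resolution 1, seed 1), the members and lists being kept out of the variable genes. Clusters took the name of the best marker list, then blood EC were clustered again. Capillaries of lamina propria and PP were not told apart.

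UMIs were summed over the cells of a class and library and given as CPM with exact 95% Poisson intervals. Ratios have exact conditional intervals, shares of cells have Clopper-Pearson intervals after thinning to 1000 UMIs, and a count of 0 was set to 3 UMIs. Intervals treat UMIs of a cell as independent and cover counting error only. A class was compared where every library held 10 of its cells or more. No test was run, because there is 1 control library and cells are not replicates. Nothing in the labels says whether the 2 EC-iCOUPOE libraries came from separate mice, so their SD may be technical.

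The members and lists were chosen with earlier results of these data known. Genes named besides the 7 members were Nr2f2, the receptor and JAK-STAT lists, up to 4 genes of each other list with the largest smaller-of-2 absolute ratio in CapEC-like cells and the 3 genes most correlated with each member. Mx2 and Cxcl11 were not analysed here. Alternatives were another resolution, doublets kept, at least 2000 UMIs per cell, all variable genes, TMM scaling (edgeR 4.0.16), other minimums and folds, other thinning, leaving out the top cell or a library, and, chosen after seeing the data, leaving out clusters 1 and 3 or HEC-like cells and keeping the classes at 2000 UMIs. The call rule was tested on simulated data. Python 3.11.15 and scipy 1.17.1 were used.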

Additional observations from a re-analysis of the deposited data

Results flagged for a closer look

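Cxcl1 was on opposite sides of the control library in different classes. The mean log2 ratio was 1.19 in CapEC-like cells, with both EC-iCOUPOE libraries above, and -1.19 in arterial EC-like cells, -0.98 in the unnamed cluster and -2.34 in dividing cells, with both below. The difference between classes was not tested. It did not hold in every arterial cluster, since cluster 5 stood at log2 0.88 and 0.14. The dividing cells of the libraries also differed in Madcam1, at 8558, 2584 and 2668 CPM. In cells of at least 2000 UMIs the capillary value was 0.66 in the same class and -1.81 when the cells were clustered and named again.

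Irf1 was above the control library in both EC-iCOUPOE libraries in CapEC-like cells (mean log2 1.30) and below it in both in pericyte and smooth muscle-like cells (-1.01). This difference was not tested either. Without cluster 1 the capillary value was 0.10.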

How the results depend on the processing

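The number of members called stayed within 1.5 times the reported number in 88 of 111 class-by-setting values. No member called as reported changed the sign of its mean ratio, and members not called as reported were not checked for this. Cxcl1 in CapEC-like cells, not called as reported, was called higher at 1.5-fold. It was called lower when cells of at least 2000 UMIs were clustered again. Ratios moved by less than the SD between libraries in 291 of 338 values, shares of cells stayed within their interval in 22 of 78, co-detection in 20 of 24 and the lists in 109 of 128. The ratios with 1 EC-iCOUPOE replicate left out lie within that SD by construction and cannot reverse a call. They are counted in the 338 but do not measure stability. In CapEC-like cells, 4 members were called at 1.5-fold (Irf1 and Cxcl1 added) and 0 without cluster 1, which leaves 8, 18 and 19 Cxcl10 UMIs. In arterial EC-like cells 1 was called without cluster 3, in PCV-like cells 1 at 3-fold, and over all blood EC 2 at 3-fold. In CRP-like cells 2 were called with no minimum of UMIs. The unnamed cluster, with 0 calls as reported, had 2 at resolution 0.6, 2 at 1.5-fold and 1 each with cells of at least 2000 UMIs, all variable genes, TMM scaling and the top cell left out. Of these settings only 1.5-fold has a share of all genes called, so nothing is read from the other counts. Dividing cells had 2 with at least 10 UMIs or no minimum and 0 at 3-fold, and pericyte and smooth muscle-like cells had 1 at 1.5-fold. Apart from the cluster, top cell and minimum settings, whose construction removes cells or adds genes, the cause was not tested.

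Leaving out each EC-iCOUPOE replicate gave 2 to 4 calls in CapEC-like cells, 1 to 2 in CRP-like cells, 3 to 4 in arterial EC-like cells, 2 to 3 in PCV-like cells, 1 to 4 in the unnamed cluster, 1 to 2 in dividing cells, 1 to 2 in pericyte and smooth muscle-like cells and 4 to 5 over all blood EC. The larger number came without replicate 1, except in pericyte and smooth muscle-like cells. With 1 replicate left out the rule rests on the other alone and is looser. The share of all genes called was not computed for it, so nothing is read from these counts. The capillary Cxcl10 mean log2 of 6.00 became 4.42 with cells of at least 2000 UMIs, 2.71 when those were also clustered again, 4.54 without cluster 1, 2.42 in cluster 1 alone and 7.27 without the top cells. When cells of at least 2000 UMIs were clustered again, 934 of 1189 PCV-like cells fell in a cluster that took no name and 6 of replicate 2 were named PCV-like, so that class was not compared. With the classes kept (358, 744 and 87 cells) the same 2 members were called, where 3.36% of genes were higher and 1.64% lower. Without HEC-like cells 3 members were called over all blood EC (Cxcl10, Ccl2 and Socs1), and Cxcl1 was lost. No paired analysis was possible because the control library has no replicate number and is a single library.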

Other observations

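Fibroblast-like cells, which the sort was not meant to keep, carried several members in the control library. Their 2393 cells had Cxcl1 at 830 CPM, Cxcl10 at 265, Ccl2 at 158, Ccl7 at 137 and Cxcl9 at 24.2 CPM, and 150 of them had 3 or more members after thinning, up to 6 in 1 cell. Cxcl9 and Cxcl10 shared 18 fibroblast-like cells against 4.60 from the product of their shares, and Cxcl10 and Irf1 shared 79 against 38.2. The EC-iCOUPOE libraries held too few such cells to compare.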
